A study of Arabidopsis thaliana with 6 samples.

Results

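Nitrogen enters an Arabidopsis seedling mainly as nitrate and ammonium, and the 43 genes described here carry it from the root surface to amino acids. They were taken by locus identifier and comprise nitrate transporters of the NRT1 and NRT2 families, ammonium transporters, the reductases, the glutamine, glutamate and asparagine synthesis enzymes, and the regulators of the nitrate response. Of the 43 loci, 41 were read from a deposited table of 22426 loci, while NRT2.2 and NRT2.7 were not analysed here. The table holds FPKM, fragment counts scaled by gene length and by the library's total, for 3 libraries labelled NCBP mutant and 3 labelled wild type. All came from Arabidopsis thaliana seedlings of 2 weeks, kept under a day of 16 hours light and 8 hours darkness at a temperature of 22 °C. NCBP (AT5G18110) is a relative of the translation factor eIF4E that binds the mRNA cap, and here the question is how the nitrogen genes differ in plants labelled as its mutant. The labels name no allele, line, accession, nitrogen supply or hour of harvest, nor whether the replicates were sown apart. The p-values therefore reflect variation among these 6 libraries alone, and that variation may be technical.

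As background, nitrate is taken up by low-affinity carriers of the NRT1 family and by high-affinity NRT2 carriers that need the partner protein NAR2.1. Nitrate reductase turns nitrate into nitrite in the cytosol, and nitrite reductase turns nitrite into ammonium in the plastid, with electrons from ferredoxin. Glutamine synthetase and glutamate synthase then fix ammonium into amino acids. NLP transcription factors switch these genes on when nitrate arrives, and the LBD, HRS1/HHO and BT genes are induced by nitrate and feed back on uptake.

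Mutant replicates 1, 2 and 3 had 57.9, 59.2 and 55.8 FPKM of NCBP, against 97.4, 100.4 and 97.9 FPKM in wild type, so the transcript fell to 58.5% of the wild-type mean but was still present (log2 fold change -0.76, SE 0.05, limma adjusted p 0.000146). In RefSeq its exons share 12.7% of their length with AT5G18100 on the opposite strand. FPKM sums lay between 979062 and 998737 in the mutant and between 970383 and 1040255 in wild type, and the number of reads behind them is unknown. The green-leaf markers summed to between 59247 and 62379 FPKM in the mutant and between 58092 and 68831 FPKM in wild type. Of 9 green-leaf markers, 0 rose, 1 fell (RCA) and 8 did not pass. The 3 seed markers in the table and 3 of 5 flower markers averaged under 1 FPKM. The 21 root markers summed to between 1161 and 1346 FPKM in the mutant and between 1499 and 1753 FPKM in wild type. Of 20 root markers tested, 0 rose, 2 fell (PYK10 and TIP2;3) and 18 did not pass, with a median log2 fold change of 0.06. The falls were 10% of the root and 11.1% of the green-leaf markers tested, beside 8.44% of all genes tested. Without PYK10 and TIP2;3, the other root markers summed to between 188 and 208 FPKM in the mutant and between 183 and 202 FPKM in wild type, which overlap. In whole seedlings, fewer cells of a type and less RNA per cell cannot be told apart.

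The nitrogen genes that changed moved in both directions, and 0 of those tested changed by 2-fold or more on the log2(FPKM + 1) scale. Of the 41 loci, 37 had a mean of at least 1 FPKM over the 6 libraries and were tested with limma on log2(FPKM + 1) in a fit over 18064 genes. Of these 37, 6 rose, 6 fell and 25 did not pass in the mutant (adjusted p, threshold 0.05), which is 32.4% called and 16.2% in each direction. Over all genes tested, 14.7% passed, 6.27% higher and 8.44% lower. The groups did not overlap for 25 of the 37, with 12 above and 13 below wild type, or 67.6% in all. Among all genes tested, groups did not overlap for 35.5%, with 16.4% above and 19.1% below wild type. The nitrogen genes were chosen with earlier results of these data known, and the genes set beside them were not matched by FPKM level. These shares are therefore a description, and whether nitrogen genes changed more often than other genes was not tested. The median log2 fold change of the 37 was -0.10, beside -0.0034 over all genes tested, and it ranged from -0.57 to 0.82. The counts, the shares and the 0.82 include NRT2.1, which passed the filter through its mutant libraries (wild-type mean 0.932 FPKM). Next highest was G6PD3 at 0.63. With no filter, 5 nitrogen genes were higher and 5 lower. Setting all libraries to 1 common total (TPM) gave 7 higher and 4 lower of the nitrogen genes, and 1286 higher and 1100 lower of all genes in place of 1133 and 1524. Without mutant replicate 1 the nitrogen genes past the threshold numbered 3 higher and 3 lower, and without mutant replicate 2 they numbered 4 and 3, while the calls over all genes numbered 1307 and 1382 in place of 2657. Without wild-type replicate 3 and without mutant replicate 3 all calls numbered 1701 and 1762.

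The genes called higher were the high-affinity carrier NRT2.1 and its partner NAR2.1, nitrite reductase, its sirohaem cofactor enzyme UPM1, the plastid reductant enzyme G6PD3 and the cytosolic glutamine synthetase GLN1;1. NRT2.1 is counted here although it passed the filter through its mutant libraries. Those that fell were the NRT1 carriers NRT1.2 and NRT1.4, the ammonium transporters AMT1;2 and AMT2;1, the asparagine synthetase ASN2 and the regulator BT2. Calls of NRT1.2, AMT1;2, GLN1;1, G6PD3 and UPM1, which are 5 of the 12, held under each of 18 alternatives.

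**Figure D1:**
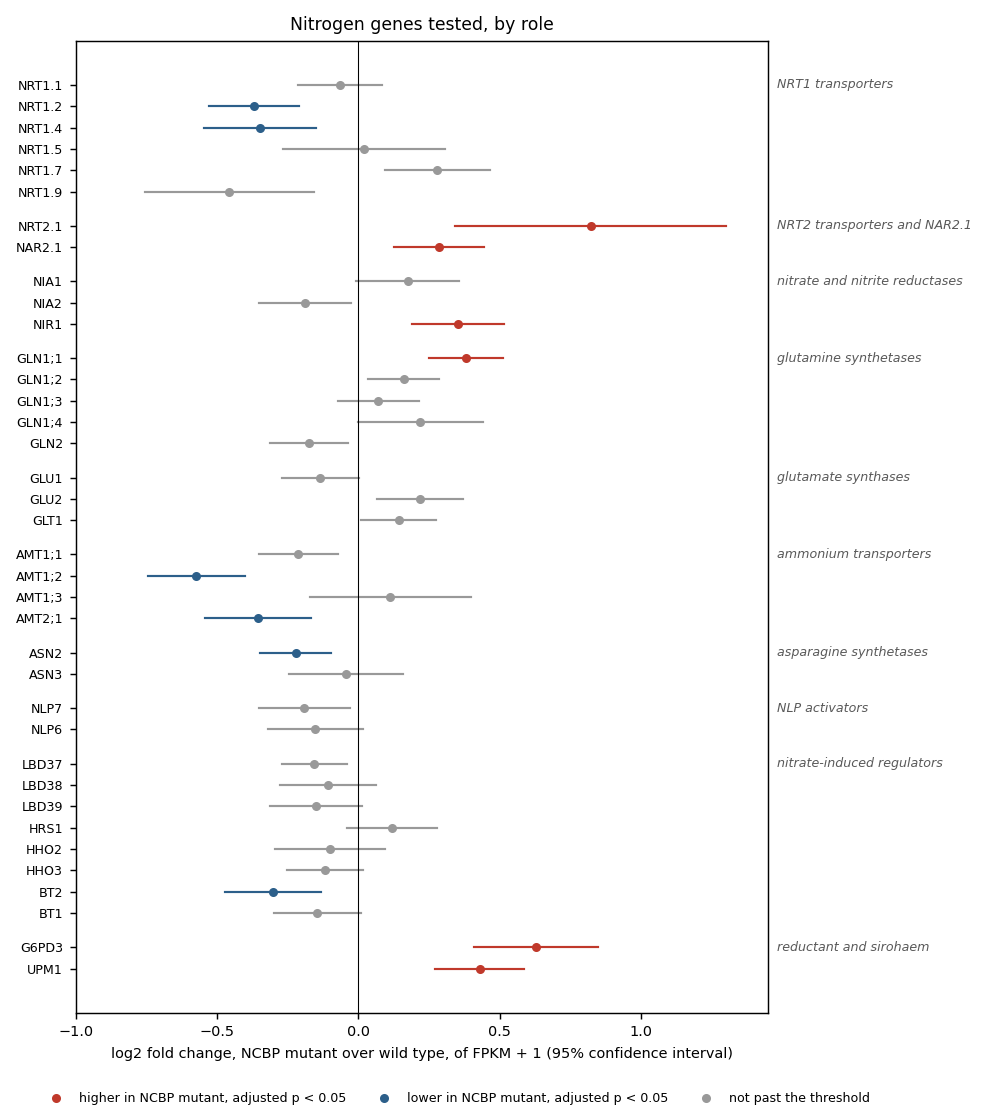
Log2 fold change of FPKM + 1, NCBP mutant over wild type, for the 37 nitrogen genes tested, grouped by role. Points are limma estimates and bars are 95% confidence intervals not adjusted for the number of genes. The 6 red points are higher and the 6 blue points lower in the mutant past the limma threshold of 0.05, and the other 25 are grey.

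**Figure D2:**
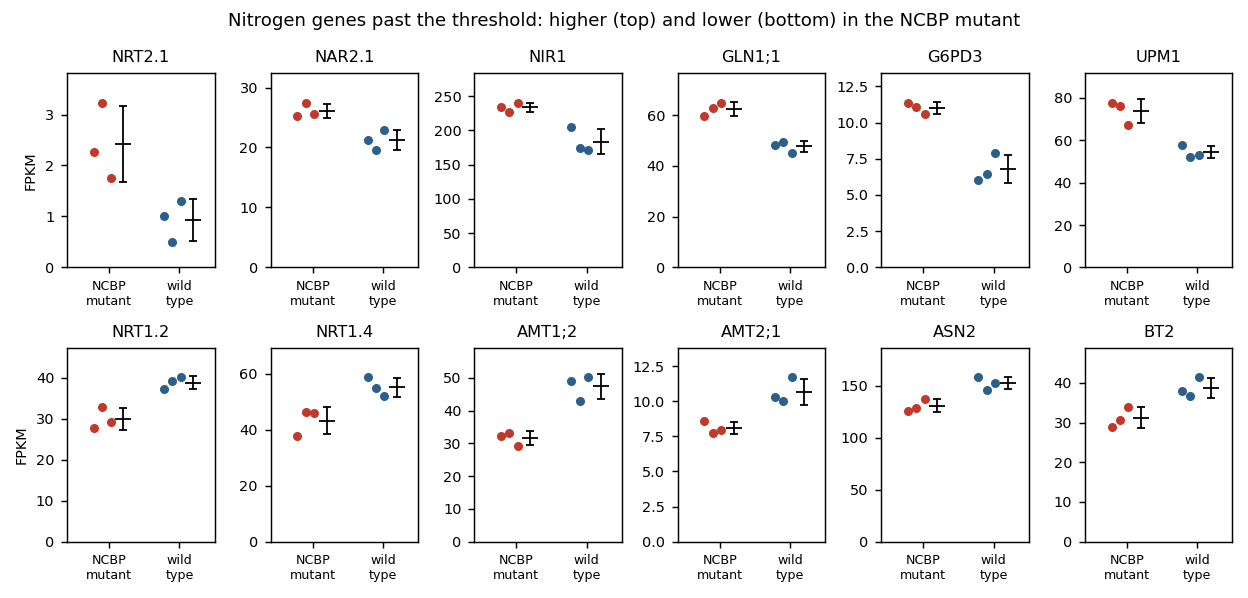
FPKM of the 12 nitrogen genes past the threshold. Points are single libraries (3 NCBP mutant on the left of each panel, 3 wild type on the right) and the black marks are mean ± SD. The panels were chosen by the limma threshold on these same values, and in each the groups do not overlap. Groups did not overlap for 35.5% of all genes tested. Each vertical axis starts at 0 with its own scale.

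Of 6 NRT1 carriers tested, 2 fell, 0 rose and 4 did not pass, beside 8.44% lower and 6.27% higher over all genes tested. NRT1.2 (AT1G69850, also NPF4.6), a carrier for nitrate entry into root epidermis that also imports abscisic acid, had 27.8, 32.8 and 29.1 FPKM in the mutant, against 37.2, 39.1 and 40.2 FPKM in wild type. Every mutant library lay below every wild-type library, as for 19.1% of all genes tested, and the mutant mean was 77.0% of the wild-type mean. The log2 fold change was -0.37 (SE 0.07, limma adjusted p 0.0119). NRT1.4 (AT2G26690, NPF6.2), a carrier known from the leaf petiole, had 37.6, 46.2 and 46.0 FPKM in the mutant, against 58.8, 54.8 and 51.9 FPKM in wild type. Mutant replicate 1 was lowest, and all 3 mutant libraries lay below wild type. Its log2 fold change was -0.35 (SE 0.09, limma adjusted p 0.0307). This call was lost without wild-type replicates 1 or 2 or mutant replicate 1 (adjusted p 0.0905, 0.0724 and 0.0665), within a range of 0.0229 to 0.0905 over its alternatives.

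The most abundant NRT1 gene was NRT1.5 (AT1G32450), which loads nitrate and potassium into the root xylem. It had 101.3, 117 and 100.6 FPKM in the mutant, against 84.6, 111 and 123 FPKM in wild type, so the mutant values lay within the wild-type range. Its log2 fold change was 0.02, with a 95% interval from -0.26 to 0.31. NRT1.1 (AT1G12110), the dual-affinity carrier and nitrate sensor, averaged 71.6 ± 6.23 FPKM in the mutant and 74.7 ± 0.682 FPKM in wild type (SD, n = 3 each). Its log2 fold change was -0.06, with a 95% interval from -0.21 to 0.09. NRT1.7 (AT1G69870), which moves nitrate out of source leaves through the phloem, had 13.5 ± 0.384 FPKM in the mutant and 11.0 ± 1.14 FPKM in wild type, with an adjusted p of 0.0535 by limma. NRT1.9 (AT1G18880), a phloem carrier of the root, had 10.6 ± 1.87 FPKM in the mutant and 14.9 ± 2.14 FPKM in wild type, with an adjusted p of 0.0503 by limma. In the RefSeq annotation of TAIR10.1 the exons of NRT1.9 share 30.7% of their length with CPK10 on the opposite strand, and no source used here names the strand of the reads. NRT1.7 passed in 7 and NRT1.9 in 9 of 18 alternatives, over which their adjusted p ranged from 0.0352 to 0.152 and from 0.0262 to 0.153. NRT1.8, which unloads nitrate from the xylem, lay between 0.26 and 0.83 FPKM in the 6 libraries and was not tested.

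The high-affinity carriers were scarce in these seedlings, and NRT2.1 and the partner NAR2.1 were tested. NRT2.1 (AT1G08090), the main high-affinity carrier of the root, had 2.26, 3.23 and 1.76 FPKM in the mutant, against 1.00, 0.492 and 1.30 FPKM in wild type. All 3 mutant values exceeded all 3 wild-type values, although the spread within each group was wide. The mutant mean was 259% of the wild-type mean and the log2 fold change of FPKM + 1 was 0.82 (SE 0.21, limma adjusted p 0.0333). With pseudocounts of 0.1 and 5 it was 1.33 and 0.32, and at 5 it was below those of G6PD3, UPM1, GLN1;1 and NIR1. As its wild-type mean of 0.932 FPKM is under the filter, NRT2.1 entered the test through the mutant libraries, and with no filter the adjusted p was 0.0507. NAR2.1 (AT5G50200), the partner without which NRT2.1 does not act, had 25.2, 27.4 and 25.6 FPKM in the mutant, against 21.2, 19.6 and 22.9 FPKM in wild type. Mutant libraries all lay above wild type, and the log2 fold change was 0.29 (SE 0.07, limma adjusted p 0.0289).

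Both calls were lost on omitting any of several single libraries. That of NRT2.1 was lost without wild-type replicates 1 or 2 (adjusted p 0.0673 and 0.0802) and without mutant replicates 1 or 2 (0.0842 and 0.110), within a range of 0.0255 to 0.110. That of NAR2.1 was lost without wild-type replicates 1 or 2 (0.0695 and 0.0741) and without mutant replicates 1, 2 or 3 (0.0638, 0.103 and 0.0621), within a range of 0.0213 to 0.103. In RefSeq the coding sequence of NRT2.1 is 89.4% identical to that of NRT2.2, its neighbour on the chromosome, and how reads matching both genes were shared out is unknown. NRT2.4 and NRT2.5, carriers known to be induced by nitrogen starvation, reached at most 0.126 and 0.0815 FPKM in any library, and were listed at 0 in 3 and 2 of the 6 libraries. NRT2.6 lay between 0.315 and 0.756 FPKM in the mutant and between 0.321 and 0.630 FPKM in wild type. These 3 genes were under the filter and were not tested.

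Nitrite reductase was called higher, and the nitrate reductases did not pass. Whether NIR1 changed differently from NIA1 or NIA2 was not tested. NIR1 (AT2G15620), the only nitrite reductase gene, had 234, 227 and 240 FPKM in the mutant, against 205, 175 and 171 FPKM in wild type. Mutant and wild-type values were apart, the mutant mean was 127% of the wild-type mean, and the log2 fold change was 0.35 (SE 0.07, limma adjusted p 0.0149). Omitting mutant replicate 1 ended this call, with an adjusted p of 0.0525 in a range of 0.00433 to 0.0525. NIA2 (AT1G37130), the main nitrate reductase, had 434, 441 and 464 FPKM in the mutant, against 562, 469 and 499 FPKM in wild type, with wild-type replicate 1 standing highest. Its log2 fold change was -0.19 (limma adjusted p 0.111, 95% interval -0.35 to -0.03). NIA1 (AT1G77760), the minor isoform, had 186, 192 and 191 FPKM in the mutant, against 189, 149 and 167 FPKM in wild type, and its log2 fold change was 0.18 (limma adjusted p 0.176).

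As a description, the make-up of the pair is given within each library, where differences in library scaling cancel. NIA1 made up 30.0, 30.3 and 29.1% of the summed NIA1 and NIA2 FPKM in the mutant libraries, against 25.2, 24.1 and 25.1% in the wild-type libraries. The means were 29.8 ± 0.599% in the mutant and 24.8 ± 0.590% in wild type (SD, n = 3 each), a difference of 5.03 percentage points. This and the other family shares were chosen after the values were seen and are given with no test.

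UPM1 and G6PD3, the members listed for sirohaem and reductant, also rose. UPM1 (AT5G40850), which makes the precursor of the sirohaem that nitrite reductase carries, had 77.7, 76.1 and 67.2 FPKM in the mutant, against 57.7, 52.3 and 53.1 FPKM in wild type. Its log2 fold change was 0.43 (SE 0.07, limma adjusted p 0.00616). G6PD3 (AT1G24280), a plastid glucose-6-phosphate dehydrogenase known from roots, where it supplies NADPH, had 11.4, 11.1 and 10.6 FPKM in the mutant, against 6.05, 6.44 and 7.91 FPKM in wild type. The mutant mean was 162% of the wild-type mean, and the log2 fold change was 0.63 (SE 0.10, limma adjusted p 0.00525). Neither gene had overlapping groups, a separation also seen in 35.5% of all genes tested. In RefSeq UPM1 shares 7.46% and G6PD3 3.53% of their exonic length with a protein-coding gene on the opposite strand, and G6PD3 is 84.3% identical in coding sequence to G6PD2, which also rose.

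Further genes of the reductant supply, from a list of 62 other pathway genes, rose as well. The list was drawn up with earlier results of these data known, so its count is a description. Of 8 listed genes of the oxidative pentose phosphate pathway, root-type ferredoxin and its reductases, 5 rose, 0 fell and 3 did not pass, with a median log2 fold change of 0.30, beside 6.27% higher and 8.44% lower over all genes tested. RFNR2 (AT1G30510), a root-type reductase that passes electrons from NADPH to ferredoxin in non-green plastids, had 52.3, 53.3 and 48.4 FPKM in the mutant, against 27.0, 28.5 and 27.9 FPKM in wild type. The groups lay far apart, the mutant mean was 185% of the wild-type mean, and the log2 fold change was 0.86 (SE 0.06, limma adjusted p 0.000146). RFNR2 made up 71.6, 72.3 and 69.6% of the summed RFNR1 and RFNR2 FPKM in the mutant, against 61.7, 61.1 and 63.7% in wild type. RFNR1 (AT4G05390), its relative, averaged 20.8 ± 0.353 FPKM in the mutant and 16.9 ± 1.09 FPKM in wild type (SD, n = 3 each). The 6-phosphogluconate dehydrogenase gene PGD3 (AT5G41670) averaged 44.4 ± 3.86 FPKM in the mutant and 32.2 ± 2.36 FPKM in wild type. PGD1 (AT1G64190) of the same family averaged 39.3 ± 1.86 FPKM in the mutant and 31.3 ± 2.61 FPKM in wild type. G6PD2 (AT5G13110), another plastid glucose-6-phosphate dehydrogenase, averaged 13.5 ± 0.706 FPKM in the mutant and 10.6 ± 0.615 FPKM in wild type. The adjusted p by limma was 0.0219 for RFNR1, 0.00841 for PGD3, 0.0201 for PGD1 and 0.0205 for G6PD2.

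The 3 reductant genes that did not pass were FD3, the root-type ferredoxin, PGD2 and G6PD1, the chloroplast isoform most active in leaves. FD3 had 123, 113 and 116 FPKM in the mutant, against 103, 107 and 100 FPKM in wild type, with an adjusted p of 0.0511 by limma. PGD2 had a log2 fold change of 0.10 and G6PD1 one of -0.03, the 95% interval of G6PD1 running from -0.13 to 0.07. The calls of RFNR2 and PGD3 held in each of 18 alternatives. That of RFNR1 was lost without wild-type replicates 1 or 3 (adjusted p 0.0580 and 0.0663) or mutant replicates 1, 2 or 3 (0.0689, 0.0615 and 0.0638), and with a replicate block (0.0504), within 0.0157 to 0.0689. That of PGD1 was lost without mutant replicates 1 or 2 (0.0731 and 0.0586), within 0.0130 to 0.0731, and that of G6PD2 without wild-type replicate 1 or mutant replicates 2 or 3 (0.0580, 0.0746 and 0.0647), within 0.0149 to 0.0746. PGD1 shares 32.0% of its exonic length with a non-coding locus on the opposite strand in RefSeq.

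**Figure D3:**
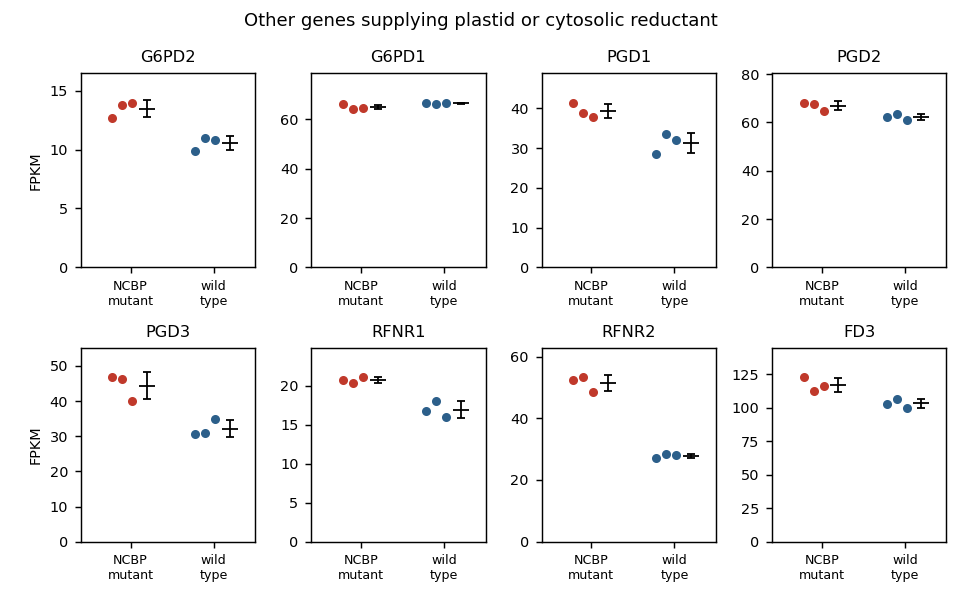
FPKM of the 8 listed genes of the reductant supply that are not among the 43. Points are single libraries (3 NCBP mutant on the left, 3 wild type on the right) and the black marks are mean ± SD. RFNR2 lies at 48.4 to 53.3 FPKM in the mutant and 27.0 to 28.5 FPKM in wild type, while G6PD1 is nearly level. Each vertical axis starts at 0 with its own scale.

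Of the enzymes that fix ammonium, 1 passed. Among 5 glutamine synthetase genes, 1 was called higher and 4 did not pass. Of 3 glutamate synthase genes 0 passed by limma, with 2 at an unadjusted p under 0.05. Over all genes tested, 6.27% were higher and 8.44% lower, and 5574 of 18064 had an unadjusted limma p under 0.05. GLN1;1 (AT5G37600), a cytosolic high-affinity glutamine synthetase, had 59.5, 62.7 and 64.8 FPKM in the mutant, against 48.2, 49.5 and 45.1 FPKM in wild type. Here too the mutant libraries lay above wild type, and the log2 fold change was 0.38 (SE 0.06, limma adjusted p 0.00477). The chloroplast enzyme GLN2 (AT5G35630), known for refixing the ammonium of photorespiration, was the most abundant of all 41 loci. It averaged 1218 ± 13.8 FPKM in the mutant and 1376 ± 82.1 FPKM in wild type (SD, n = 3 each), with a log2 fold change of -0.17 (limma adjusted p 0.0919, 95% interval -0.31 to -0.04).

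GLN1;2 (AT1G66200), the most abundant cytosolic isoform, had 383, 413 and 417 FPKM in the mutant, against 362, 348 and 374 FPKM in wild type. These groups did not overlap either, as for 35.5% of all genes tested, but the adjusted p was 0.0867 by limma. GLN1;3 and GLN1;4, which are also cytosolic, did not pass. GLN1;3 averaged 51.3 ± 3.57 FPKM in the mutant and 48.7 ± 1.73 FPKM in wild type, and GLN1;4 averaged 3.61 ± 0.200 FPKM in the mutant and 2.96 ± 0.172 FPKM in wild type. In RefSeq GLN1;1 and GLN1;2 are 87.5% identical in coding sequence, so reads may fit both. The 4 cytosolic genes together made up 29.3, 30.1 and 30.5% of the summed glutamine synthetase FPKM in the mutant, against 24.0, 24.8 and 26.6% in wild type. The difference was 4.85 percentage points.

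Glutamate synthases passed in no case. GLU1 (AT5G04140), the ferredoxin-dependent enzyme of the leaf chloroplast, had 322, 322 and 318 FPKM in the mutant, against 375, 325 and 357 FPKM in wild type (limma adjusted p 0.170). GLU2, a second ferredoxin-dependent gene, averaged 22.1 ± 1.42 FPKM in the mutant and 18.8 ± 0.818 FPKM in wild type (limma adjusted p 0.0606). GLT1, the NADH-dependent enzyme, averaged 123 ± 3.13 FPKM in the mutant and 111 ± 7.38 FPKM in wild type (limma adjusted p 0.138). None of the 3 had overlapping groups, a separation also seen in 35.5% of all genes tested. GLU2 and GLT1 together made up 31.7, 31.2 and 30.6% of glutamate synthase FPKM in the mutant, against 26.5, 27.4 and 27.1% in wild type. The difference was 4.15 percentage points.

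**Figure D4:**
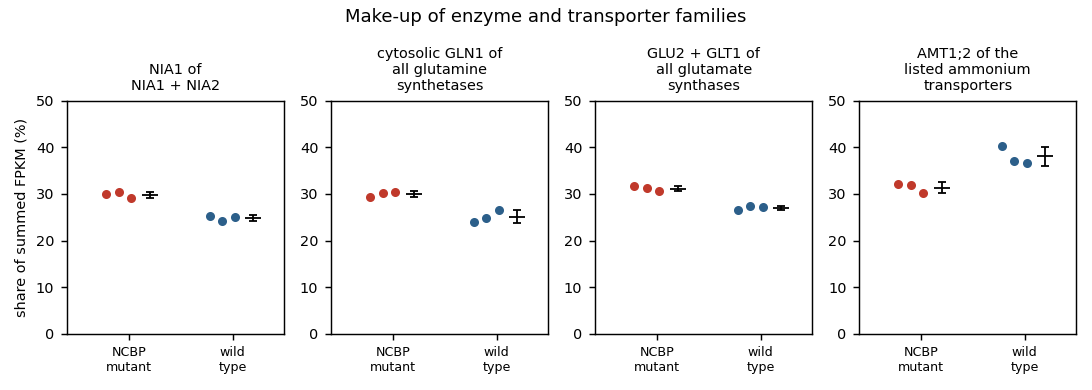
Share of the summed FPKM of a gene family, in percent, taken by the genes named above each panel. Points are single libraries (3 NCBP mutant on the left, 3 wild type on the right) and the black marks are mean ± SD. The first 3 shares are higher and the AMT1;2 share is lower in each mutant library than in any wild-type library. These shares were chosen after the values were seen and are given with no test.

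Of 4 ammonium transporters tested, 2 fell, 0 rose and 2 did not pass, beside 8.44% lower and 6.27% higher over all genes tested. AMT1;2 (AT1G64780), a transporter of the root cortex and endodermis, had 32.2, 33.3 and 29.2 FPKM in the mutant, against 49.1, 43.1 and 50.3 FPKM in wild type. The mutant mean was 66.5% of the wild-type mean, and the log2 fold change was -0.57 (SE 0.08, limma adjusted p 0.00293), the largest fall among the nitrogen genes tested. AMT2;1 (AT2G38290), a transporter of another subfamily, had 8.6, 7.74 and 7.98 FPKM in the mutant, against 10.3, 9.99 and 11.7 FPKM in wild type. Its groups did not overlap, as for 35.5% of all genes tested, and the log2 fold change was -0.36 (SE 0.08, limma adjusted p 0.0231). This call was lost after TPM rescaling or with organelle loci left out (adjusted p 0.0553 and 0.0540), and without wild-type replicate 3 or mutant replicates 2 or 3 (0.0708, 0.0812 and 0.0647), within a range of 0.0181 to 0.0812.

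AMT1;1 (AT4G13510), the most abundant of the 4 and a main route of ammonium uptake at the root surface, had 42.7, 44.2 and 43.6 FPKM in the mutant, against 48.6, 48.4 and 54.9 FPKM in wild type. Although the groups did not overlap, as for 35.5% of all genes tested, the adjusted p was 0.0501 by limma. A non-coding locus on the opposite strand covers 98.4% of its exonic length in RefSeq, so its value may include reads of that strand. AMT1;3 averaged 17.4 ± 1.28 FPKM in the mutant and 16.1 ± 3.32 FPKM in wild type, with a log2 fold change of 0.11. AMT1;2 made up 32.0, 32.0 and 30.1% of the summed FPKM of the 4 genes in the mutant, against 40.3, 37.1 and 36.7% in wild type. AMT1;2 and the root markers PYK10 and TIP2;3 fell together, while the other 18 root markers tested did not pass. Their part in the fall of AMT1;2 was not tested.

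Of the asparagine synthetases, which make the nitrogen carrier asparagine, ASN2 fell and ASN3 did not pass. ASN2 (AT5G65010) had 126, 128 and 138 FPKM in the mutant, against 158, 146 and 153 FPKM in wild type. The groups did not overlap, and the log2 fold change of -0.22 was the smallest among the 12 called (SE 0.05, limma adjusted p 0.0289). The call was lost without wild-type replicates 1 or 3 (adjusted p 0.0785 and 0.0695) and without mutant replicates 1 or 2 (0.0983 and 0.105), within a range of 0.0219 to 0.105. ASN3 averaged 9.91 ± 1.17 FPKM in the mutant and 10.2 ± 0.159 FPKM in wild type, with a log2 fold change of -0.04. In RefSeq the coding sequences of ASN2 and ASN3 are 86.7% identical.

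Among regulators of the nitrate response, 1 passed. Neither NLP7 (AT4G24020), the master regulator and nitrate sensor, nor NLP6 passed. NLP7 had 25.9, 27.8 and 25.4 FPKM in the mutant, against 31.2, 27.6 and 32.1 FPKM in wild type (limma adjusted p 0.106, 95% interval -0.35 to -0.03). NLP6, its close relative, averaged 11.2 ± 0.847 FPKM in the mutant and 12.6 ± 0.431 FPKM in wild type. Of 8 nitrate-induced regulators, 1 was called lower, 0 were called higher and 7 missed the threshold. The shares over all genes tested were 8.44% lower and 6.27% higher. Log2 fold changes were negative for 7 of the 8, with a median of -0.13 over the 8. Over all genes tested they were negative for 9156 of 18064. The count of signs was not tested, so a shared fall of these regulators is not shown. BT2 (AT3G48360), a scaffold protein that limits nitrate uptake under low nitrate, had 28.8, 30.7 and 34.0 FPKM in the mutant, against 37.9, 36.7 and 41.4 FPKM in wild type. All mutant libraries lay below wild type, and the log2 fold change was -0.30 (SE 0.07, limma adjusted p 0.0294). The call was lost after TPM rescaling or with organelle loci left out (adjusted p 0.0583 and 0.0565), and without wild-type replicates 1 or 3 (0.0619 and 0.0888) or mutant replicates 1 or 2 (0.0955 and 0.0906), within a range of 0.0222 to 0.0955.

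LBD37 (AT5G67420), a repressor of nitrogen uptake genes and the most abundant of the 8, had 123, 131 and 129 FPKM in the mutant, against 149, 138 and 141 FPKM in wild type. Its groups were apart, but the adjusted p was 0.0752 by limma. Its relatives LBD38 and LBD39 had log2 fold changes of -0.11 and -0.15. HRS1 (AT1G13300), a repressor that joins nitrate and phosphate signals, had 20.3, 19.5 and 20.4 FPKM in the mutant, against 16.7, 19.3 and 19.2 FPKM in wild type, and was the single member of the 8 with a positive log2 fold change, 0.12. The myb-like HHO2 (AT1G68670) and HHO3 (AT1G25550), and BT1, a relative of BT2, lay at -0.10, -0.12 and -0.15 on the log2 scale and did not pass.

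Among the 62 other pathway genes, 61 were in the table and 54 were tested. In the mutant 6 were called higher, 5 lower and 43 did not pass, with a median log2 fold change of -0.016. That is 20.4% called, beside 14.7% of all genes tested, and groups did not overlap for 35.2% of the list and 35.5% of all genes. In addition to the 5 reductant genes, ASP2 (AT5G19550), a cytosolic aspartate aminotransferase, rose, with 61.3 ± 7.58 FPKM in the mutant and 44.1 ± 3.33 FPKM in wild type (SD, n = 3 each). ASN1 (AT3G47340), the dark-induced asparagine synthetase, fell, at 57.4% of the wild-type mean (log2 fold change -0.77). GDH1 (AT5G18170), a glutamate dehydrogenase that can release ammonium from glutamate, fell as well, to 77.0% of the wild-type mean. BT5 (AT4G37610), a relative of BT2, had a log2 fold change of -0.58, and CIPK23 (AT1G30270), the kinase that phosphorylates NRT1.1 and AMT1 proteins, one of -0.32. CLC-A (AT5G40890), which stores nitrate in the vacuole, had one of -0.23 with an adjusted p of 0.0473 by limma.

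Of 8 listed genes for the sirohaem, tetrapyrrole and molybdenum cofactors, 0 passed by limma, with 0 at an unadjusted p under 0.05. Among them the sirohaem gene SIRB (AT1G50170) lay at -0.06 on the log2 scale. Of 14 other regulators tested, among them relatives of NLP7 and BT2, 0 rose, 1 fell and 13 did not pass. The shares over all genes tested were 6.27% higher and 8.44% lower. The calls of ASN1 and ASP2 were lost without mutant replicate 1 (adjusted p 0.0522 for each), within ranges of 0.00859 to 0.0522 and 0.00976 to 0.0522. That of CLC-A was lost in 11 of 18 alternatives, within a range of 0.0396 to 0.124, including TPM rescaling (0.0717). Without wild-type replicates 1, 2 or 3 its adjusted p was 0.0839, 0.115 and 0.0954, and without mutant replicates 1 or 2 it was 0.124 and 0.0975. Without mutant replicate 1 these pathway genes numbered 3 higher and 3 lower, and without mutant replicate 2 they numbered 3 and 4.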

How the data were processed

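For 6 libraries, values were read from the authors' deposited table of FPKM, with 1 column for each library. HISAT2, a read aligner, is among the tools listed per the submitters' processing notes. Which program computed the FPKM, and from which build and annotation, was not given in the sources used here. Columns were matched to samples by label, and 0 columns were unused. Read counts were not analysed here, so depth is unknown. Genes with a mean of at least 1 FPKM were tested on log2(FPKM + 1) with limma 3.58.1 (R 4.3.3), with a mean trend, 2-sided, adjusted by Benjamini-Hochberg over 18064 genes, at a threshold of 0.05. This scale understates the change of low genes. The fit was tested on simulated data. Names, exon overlaps and coding identities come from RefSeq TAIR10.1, which matched all 43 loci. Members and lists were chosen with earlier results of these data known. Values of each library are given for members past the threshold and for the most abundant member of each role, and in other cases means, ranges or fold changes. Of the other pathway genes, those past the threshold are named. The 18 alternatives comprised other pseudocounts (0.1, 5), other filters (none, 5 FPKM), 4 scalings, 3 variance models, a replicate block and the omission of each library.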

Additional observations from a re-analysis of the deposited data

How the results depend on the processing

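The 12 called nitrogen genes had the same direction in every alternative that tested them, and 5 of them passed in all 18. With all libraries, nitrogen genes higher numbered between 4 and 7, and lower between 4 and 8 except without a mean trend, where 3 were lower. Leaving out 1 library gave between 3 and 6 higher and between 3 and 6 lower. The other pathway genes numbered between 3 and 6 in each direction, and all genes between 1307 and 1908 (575 to 939 higher, 709 to 1084 lower). Fewer libraries give the test less power. Signs turned for 3 genes that had not passed. NRT1.5 was at -0.13 without wild-type replicate 1 and -0.05 without mutant replicate 2, in a range of -0.13 to 0.13. NRT1.1 was at 0.0011 without mutant replicate 1, in a range of -0.12 to 0.0011, and ASN3 at 0.050 without mutant replicate 3, in a range of -0.090 to 0.050. The cause was not tested. Calls also ended with no filter for NRT2.1 and NRT1.4, without a mean trend for NAR2.1, NRT1.4, ASN2 and BT2, and after quantile normalization for NRT2.1 and ASN2. Of the 25 nitrogen genes that did not pass, 7 passed in at least 1 alternative.

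Replicate numbers are shared between the groups, but deviations of same-numbered libraries correlated at 0.071, -0.072 and -0.060, so the numbers were not taken to pair the samples. With a replicate block 1991 genes passed, with 4 nitrogen genes higher and 5 lower, 5 and 5 of the other pathway genes, and a log2 fold change of NCBP of -0.76. The block ended the calls of NRT2.1, NAR2.1, NRT1.4 and ASN2 (adjusted p 0.0792, 0.0619, 0.0639 and 0.0570). It also ended those of RFNR1 and CLC-A (0.0504 and 0.0593), while NRT1.9 passed (0.0373). Without read counts the counting error cannot be estimated. The precision of genes near 1 FPKM, such as NRT2.1, rests on 3 libraries a group and on the mean trend over all genes tested.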
